A study of Mus musculus with 9 samples.

Results

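Cholesterol and fatty acid synthesis is described here through 41 genes that were chosen by function, with earlier results of these data known. They are the regulators of the SREBP factors, the enzymes that build cholesterol and fatty acids, and a few proteins that carry or activate these lipids. Of the 41 genes, 37 had a probe set that names that gene alone, among 12393 genes so measured, and Insig1, Acat2, Acsl1 and Acsl3 were not analysed here. RNA came from MLP29 cells, a mouse liver progenitor line, on 9 arrays of the type Mouse430A_2 that hold 3 conditions in 3 experiments, with each condition once per experiment. All cells were starved in 0.1% serum for at least 16 h. They were then left untreated, or given for 24 h either HGF/SF1 (hepatocyte growth factor) at 20 ng/ml or the antibody BMB5, which blocks α5β1 integrin, at 10 µg/ml. Cells with a control antibody were not analysed here, so the addition of an antibody and the blockade of the integrin cannot be told apart. MLP29 is 1 line, and nothing in the sources says whether the experiments used separate thaws or passages, so the tests measure the spread between these arrays only.

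Cells make cholesterol from acetyl-CoA through mevalonate, squalene and lanosterol, and they make fatty acids from the same acetyl-CoA through malonyl-CoA, with elongases and desaturases that shape the chains. The genes of both routes are switched on by the SREBP transcription factors, which are held in the endoplasmic reticulum by Insig proteins when sterols are plentiful and are carried to the Golgi by Scap and cleaved when sterols run low. SREBP-2 is known mainly for the sterol genes and SREBP-1c for the fatty acid genes, and liver cells are a main site of both.

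Values are log2 fluorescence per probe set, so a difference of 1 is a 2-fold difference, and a gene takes the values of its brightest probe set. Of 14 measured epithelial and liver progenitor markers 5 never reached 6, namely Epcam, Afp, Alb, Prom1 and Onecut1. Epcam, Afp and the hepatocyte marker Alb lay between 3.72 and 4.72, near the low end of the table. The epithelial keratins Krt8, Krt18 and Krt19 lay between 12.88 and 14.14 on all arrays. Cdh1 (10.42 to 11.19), Hnf4a (8.23 to 10.09), Foxa2 (8.04 to 9.43), Foxa1 (6.39 to 7.87) and Krt7 (6.26 to 7.03) lay between these levels. Sox9 ran from 4.61 to 6.44. Of 11 leukocyte markers 9 never reached 6, the exceptions being Cd14 (10.52 to 12.34) and Cd68, and Ptprc, which defines leukocytes, stayed between 3.02 and 3.38. The log2 sum of the leukocyte list lay between 11.79 and 12.25 in untreated cells and between 11.21 and 12.42 after the antibody. All 8 fibroblast markers and 5 of 7 endothelial markers never reached 6, the exceptions being Cdh5 (4.25 to 6.31) and Eng (6.08 to 6.57).

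Many members differed between the experiments, and among them were nearly all of the 17 measured enzymes from Hmgcs1 to Dhcr7 that make cholesterol. In untreated cells 16 of these 17 were highest in experiment 1, intermediate in experiment 2 and lowest in experiment 3, and 16 had this order after HGF/SF1. Of all 12393 genes, 2620 had it in untreated cells and 2486 after HGF/SF1. These counts use the brightest probe sets. Dimmer ones of Hmgcs1, Mvk, Mvd, Idi1, Lss and Cyp51 kept the order in both conditions. Those of Sc5d (7.26, 5.53 and 5.64 in untreated cells) and Hsd17b7 (7.91, 6.60 and 6.85) were lowest in experiment 2 in both. Each gene's mean over the 9 arrays was subtracted and the median over the 17 enzymes was taken. This median was 0.74, 0.24 and -1.23 on the untreated arrays of experiments 1, 2 and 3. It was 0.74, -0.43 and -1.12 on the HGF/SF1 arrays. On the antibody arrays it was 0.40, 0.43 and 0.22. These 3 medians stood close together, without the low median of experiment 3. Single enzymes did not all do so. Between the antibody arrays of experiments 3 and 1 the 17 enzymes differed by -1.13 to 0.41, and 12 were lower in experiment 3. Of all 12393 genes, 6523 were lower there. On the antibody arrays Mvk was at 8.48, 7.53 and 7.43 and Dhcr7 at 8.43, 7.71 and 7.39. On the untreated arrays the same difference ran from -2.83 to -0.81. The medians of all genes lay between -0.02 and 0.02 on every array.

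**Figure D1:**
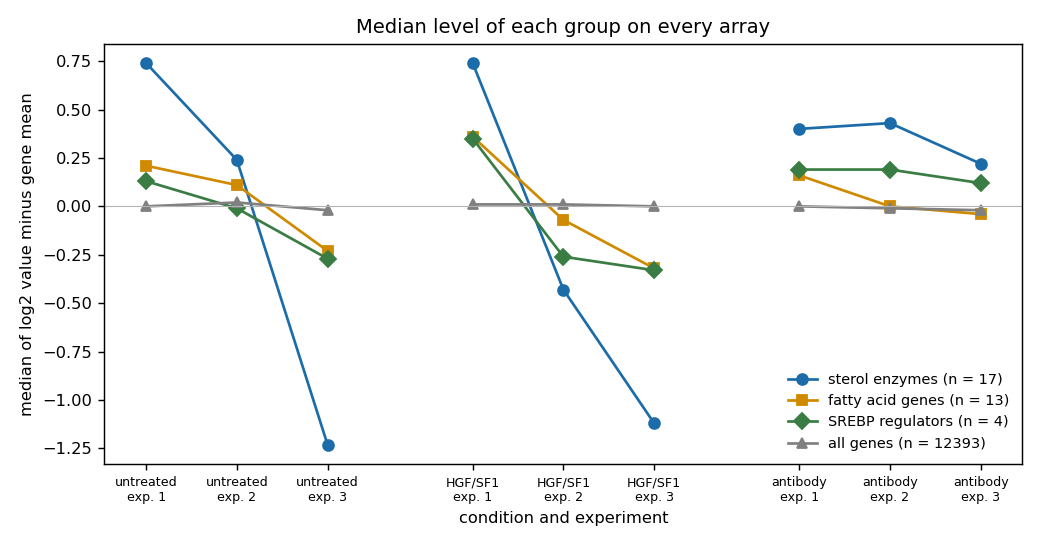
Median over a group of genes of the log2 value minus each gene's mean over 9 arrays, by condition and experiment. The median of the 17 sterol enzymes went from 0.74 to -1.23 over the untreated arrays and from 0.74 to -1.12 over the HGF/SF1 arrays. It stayed between 0.22 and 0.43 on the antibody arrays.

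A limma fit with experiment and condition as terms, added after these values were seen, compared the experiments over all conditions. Of the 37 members, 29 differed between experiments 3 and 1 at an unadjusted p under 0.05, where 22.4% of all genes did. Of these members 28 were lower in experiment 3, where 11.9% of all genes were lower, and 1 was higher. After adjustment over all probe sets 9 members remained past 0.05, against 3.86% of all genes, and they were Hmgcs1, Mvk, Idi1, Dhcr7, Stard4, Acly, Fasn, Scd2 and Elovl6. The median difference of the members was -0.89 and that of all genes -0.03. Between experiments 3 and 2, 13 members were lower and 1 higher (13.7% of all genes in either direction), and Scd2 passed the adjusted threshold (1.23% of all genes). Between experiments 2 and 1, 11 members were lower and 0 higher (14.5% of all genes in either direction), and Acaca, Elovl6 and Fasn passed the adjusted threshold (0.654% of all genes). Without the antibody arrays 30 members were lower in experiment 3 than in experiment 1, where 10.8% of all genes were lower. Without the HGF/SF1 arrays 14 were, where 8.25% of all genes were lower, and without the untreated arrays 14 were, where 6.87% were. In both of these fits 0 members and 0% of all genes passed after adjustment by limma. Of the 40 measured cell type markers 10 passed between experiments 3 and 1, which is 25%, near the 22.4% of all genes. The endothelial Cdh5 (1.63, and 0.19 in a dimmer probe set) and the leukocyte marker Cd68 (1.53) were higher in experiment 3. Among the 14 epithelial and liver progenitor markers, whose median difference was -0.05, Hnf4a (-1.20) and Foxa2 (-1.23) were lower and Sox9 (0.91) was higher. The part of these markers in the result was not tested. The experiments are told apart by a code in the array titles. The sources used here do not say what the code stands for or what differed between the experiments. The numbers 1, 2 and 3 need not be an order in time.

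**Figure D2:**
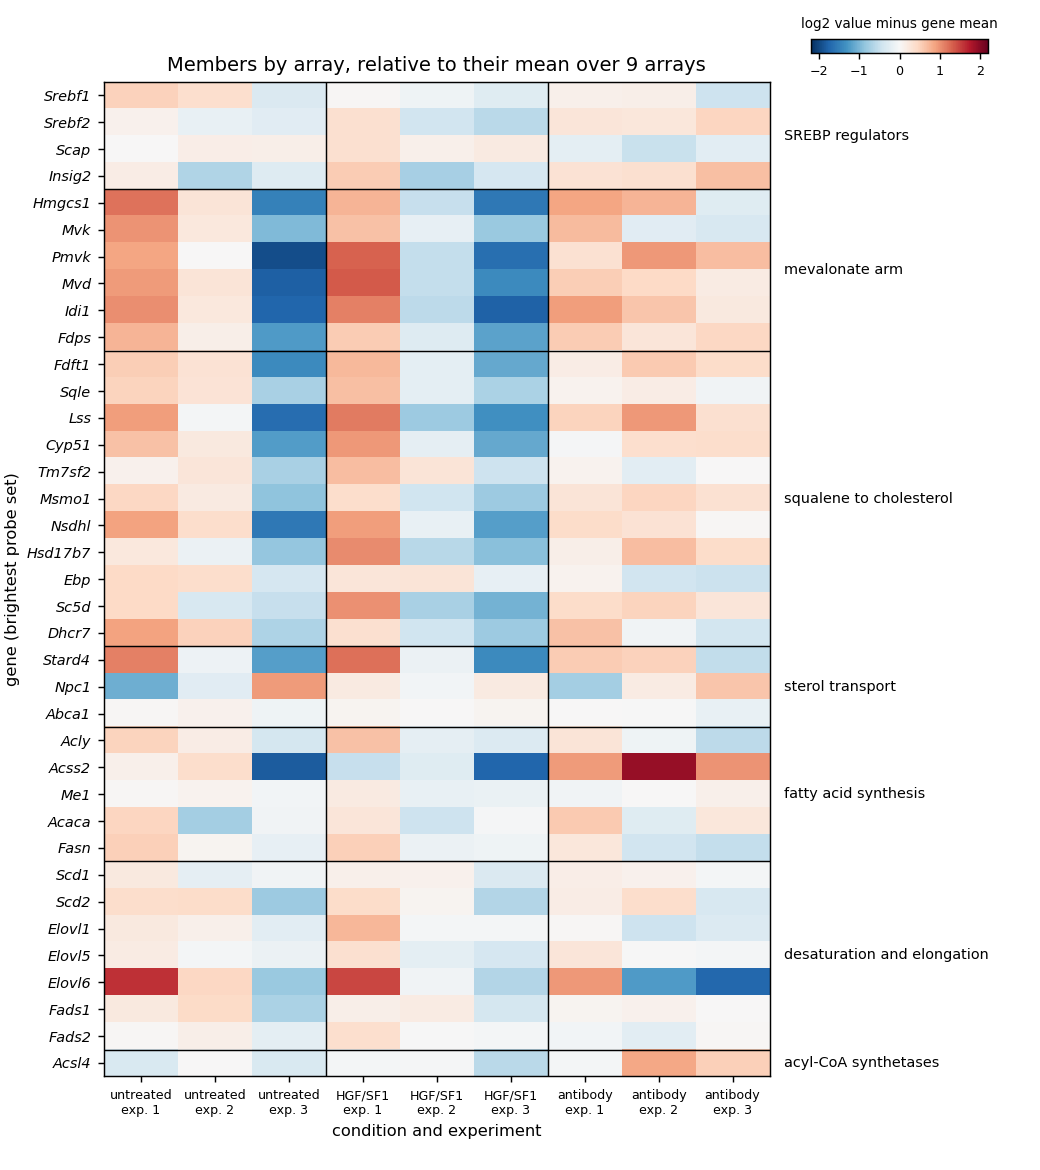
Level of the 37 measured members on each of the 9 arrays, as log2 value minus the gene's mean over the arrays (red above, blue below), in the order of their roles. The enzymes of the mevalonate and squalene arms are blue on the untreated and HGF/SF1 arrays of experiment 3 and mostly pale or red on its antibody array, and Acss2 is highest on the 3 antibody arrays.

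After the antibody, few members passed the test against untreated cells. The acetyl-CoA synthetase Acss2 and the acyl-CoA synthetase Acsl4 were higher and the SREBP escort Scap was lower, which makes 3 of 37 members at an unadjusted p under 0.05, where 12.6% of all genes passed. By limma 0 members passed after adjustment, whereas 0.0403% of all genes did. The median change of the members was 0.13 and that of all genes 0. With experiment as a block, which takes the differences between experiments out of the error, 4 members were higher (Acss2, Acsl4, Insig2 and Acaca) and 4 lower (Scap, Elovl6, Fasn and Ebp), where 18.5% of all genes passed. The shares of members that passed, 8.11% without the block and 21.6% with it, were near those of all genes. Of the 40 measured cell type markers 2 passed after the antibody, where 12.6% of all genes did. Cd68, a leukocyte marker that is also a lysosomal protein of other cells, was higher. It was at 6.66, 8.15 and 9.47 against 5.12, 5.20 and 6.17 in untreated cells, while Ptprc stayed at its low level. Foxa1, of the epithelial and liver progenitor list, was lower (-0.83; adjusted p = 0.257 by limma). With the block 4 of the 40 passed, where 18.5% of all genes did, with Hnf4a (-0.86) also lower and Sox9 (0.67) also higher. The part of these markers in the results was not tested.

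Among the SREBP regulators, Scap fell after the antibody. Scap carries the SREBP precursors from the endoplasmic reticulum to the Golgi. It was at 9.43, 9.57 and 9.55 in untreated cells of experiments 1, 2 and 3, at 9.77, 9.52 and 9.61 after HGF/SF1, and at 9.20, 8.92 and 9.18 after the antibody. The 3 antibody arrays were the lowest of the 9 and did not overlap with the other conditions. The change against untreated cells was -0.41 (SE 0.12, 95% interval -0.68 to -0.15; adjusted p = 0.229 by limma). The level of Scap was nearly the same in experiments 3 and 1 (-0.02, SE 0.11). Leaving out experiment 2 took the change to -0.30, no longer past the threshold.

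Srebf2, which encodes the SREBP-2 precursor, read 9.52, 9.25 and 9.17 in untreated cells, 9.77, 9.0 and 8.82 after HGF/SF1 and 9.69, 9.67 and 9.90 after the antibody. The antibody arrays lay above all untreated arrays but overlapped with the HGF/SF1 array of experiment 1. The change was 0.44 (SE 0.23) against untreated cells, which did not pass the test. A dimmer probe set of Srebf2 went the other way, at -0.23 (SE 0.19). Insig2, which retains the SREBP complex in the endoplasmic reticulum, was at 9.43, 8.61 and 8.98 in untreated cells, 9.82, 8.54 and 8.89 after HGF/SF1 and 9.58, 9.61 and 9.93 after the antibody. It was higher after the antibody in each of the 3 experiments, by 0.15, 0.99 and 0.95, and the change of 0.70 missed the unadjusted threshold (adjusted p = 0.469 by limma) and passed it with experiment as a block (adjusted p = 0.209). Its 2 dimmer probe sets changed by 0.16 and 0.38 and were not higher in experiment 1. Srebf1, which encodes the SREBP-1 forms, was at 10.37, 10.23 and 9.54 in untreated cells, 9.89, 9.77 and 9.59 after HGF/SF1 and 9.97, 9.99 and 9.41 after the antibody, and the conditions overlapped. Its change after the antibody was -0.25 (SE 0.24). Srebf1 was lower in experiment 3 than in experiment 1 with a log2 difference of -0.56 (SE 0.13; adjusted p = 0.0574 by limma), while Srebf2 and Insig2, at -0.37 and -0.35, did not pass that test.

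**Figure D3:**
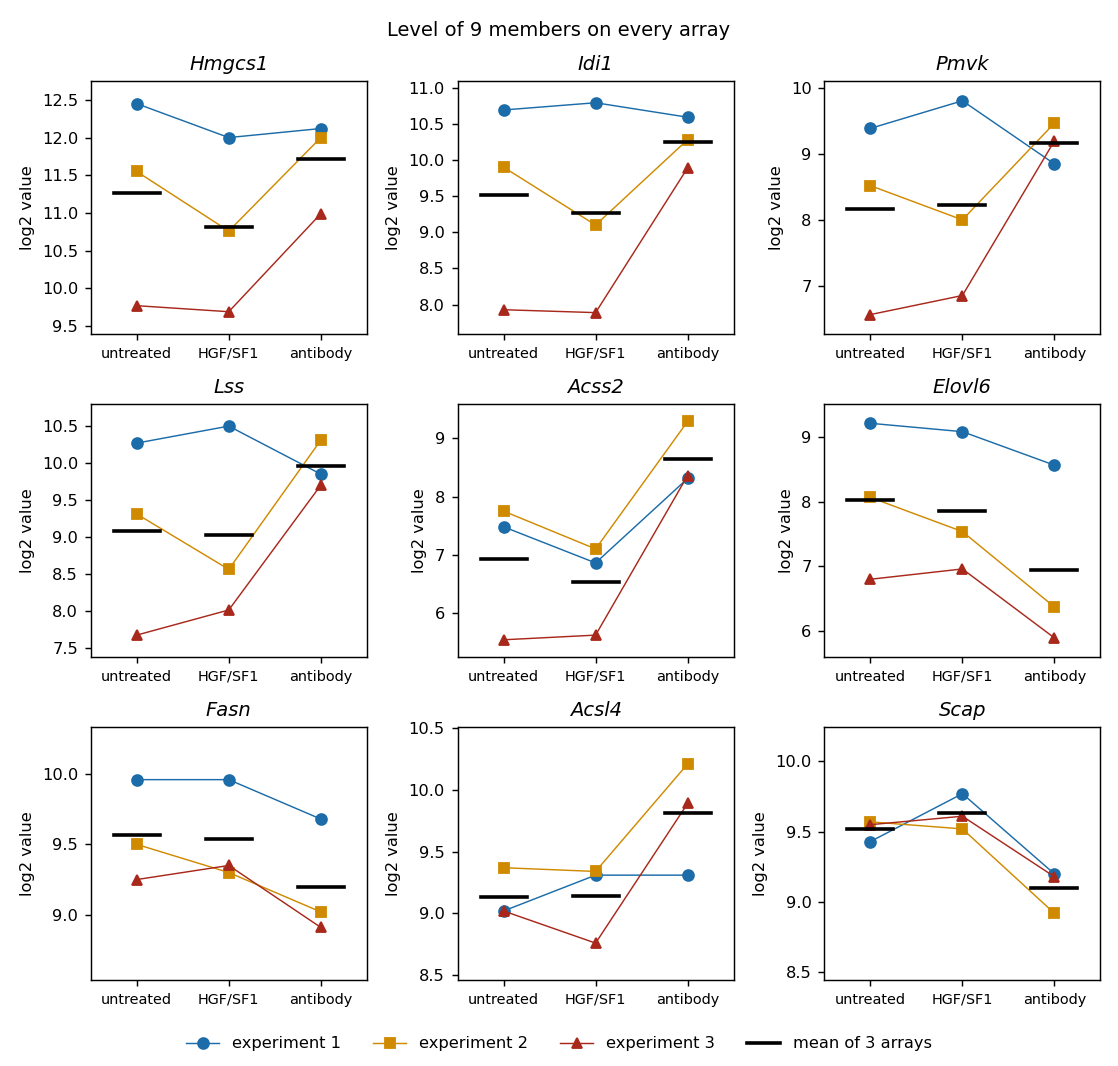
Log2 values of 9 members on every array, with the arrays of 1 experiment joined by a line and the mean of the 3 arrays of a condition as a black bar; the vertical scale differs between panels and does not start at 0. In Hmgcs1, Idi1, Pmvk and Lss the experiments lie apart in untreated and HGF/SF1 cells and draw together after the antibody, in Acss2 all 3 lines rise to the antibody, and in Elovl6, Fasn and Scap all 3 end lower than in untreated cells.

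The mevalonate arm, from Hmgcs1 to Fdps, had 6 measured enzymes. After the antibody 0 of 6 passed the test, with a median change of 0.56. In the fit over all conditions, all 6 were lower in experiment 3 than in experiment 1 and passed, where 11.9% of all genes did. Their median difference was -1.88. On the antibody arrays alone Pmvk was higher in experiment 3 (9.20) than in experiment 1 (8.85), and the other enzymes of the arm were lower. Hmgcs1, which makes HMG-CoA, was at 12.45, 11.55 and 9.77 in untreated cells of experiments 1, 2 and 3, at 12.00, 10.76 and 9.69 after HGF/SF1, and at 12.12, 12.00 and 10.99 after the antibody. In experiment 3 the untreated and HGF/SF1 arrays lay below all other arrays. The difference between experiments 3 and 1 was -2.04 (SE 0.29; adjusted p = 0.0202 by limma), and all 4 probe sets of Hmgcs1 were lowest on those same arrays.

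Idi1, the isopentenyl-diphosphate isomerase, was at 10.69, 9.90 and 7.93 in untreated cells, 10.79, 9.10 and 7.89 after HGF/SF1 and 10.59, 10.28 and 9.89 after the antibody. Its 3 antibody arrays lay close together (SD 0.35, n = 3), and its untreated arrays lay far apart (SD 1.42, n = 3). The difference between experiments 3 and 1 was -2.12 (SE 0.42; adjusted p = 0.0435 by limma). Pmvk, the phosphomevalonate kinase, was at 9.39, 8.52 and 6.56 in untreated cells, 9.81, 8.0 and 6.85 after HGF/SF1 and 8.85, 9.47 and 9.20 after the antibody. Its change after the antibody was -0.54 in experiment 1, 0.96 in experiment 2 and 2.64 in experiment 3. The mean of these was 1.02, with an SE of 0.84 from the fit without the block (adjusted p = 0.732 by limma). The 3 changes thus differed in sign and lay further apart than the size of their mean. Fdps, which makes farnesyl diphosphate, was at 13.08, 12.46 and 11.08 in untreated cells, 12.88, 12.05 and 11.15 after HGF/SF1 and 12.88, 12.60 and 12.79 after the antibody. The antibody arrays of Fdps sat in the upper range of the untreated ones, with a change of 0.55 (SE 0.54). Mvk and Mvd, the kinase and the decarboxylase of the arm, changed by -0.06 and 0.58 after the antibody and differed by -1.49 and -1.94 between experiments 3 and 1.

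The route from squalene to cholesterol took in 11 measured enzymes. After the antibody 0 of 11 passed by limma, with a median change of 0.37, and with experiment as a block 1 of 11 passed. In experiment 3 against experiment 1, over all conditions, 10 of 11 were lower and passed, all but Hsd17b7, where 11.9% of all genes did. The median was -1.04. Ebp, the sterol isomerase, was at 11.14, 11.08 and 10.33 in untreated cells, 10.96, 10.99 and 10.52 after HGF/SF1 and 10.77, 10.27 and 10.23 after the antibody. It was the enzyme that passed with the block, with changes of -0.38, -0.81 and -0.10 after the antibody in the 3 experiments and a mean of -0.43 (adjusted p = 0.199 by limma with the block and 0.581 without). Hsd17b7, a sterol ketone reductase, was at 8.16, 7.80 and 7.08 in untreated cells, 8.97, 7.31 and 7.00 after HGF/SF1 and 8.06, 8.61 and 8.32 after the antibody, a change of 0.65 (SE 0.50) with overlapping conditions. Lss, the cyclase that makes lanosterol, was at 10.27, 9.31 and 7.67 in untreated cells, 10.50, 8.56 and 8.01 after HGF/SF1 and 9.85, 10.31 and 9.70 after the antibody. On this probe set the antibody arrays thus stood near the upper end of the untreated range in all 3 experiments. The 2 dimmer probe sets of Lss did not all do so. One was at 7.89, 8.39 and 8.29 after the antibody, with untreated values from 6.20 to 8.98. The other was at 5.15, 5.90 and 4.81, with untreated values from 4.54 to 5.97. Dhcr7, the last reductase of the route, had the smallest p of the arm between experiments 3 and 1 (-1.25, SE 0.17; adjusted p = 0.0199 by limma).

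Set out by experiment, the antibody minus untreated values of the sterol enzymes lay on different sides of 0. In experiment 1 all 17 were lower on the antibody array than on the untreated array, with a median of -0.33 and a range from -0.67 to -0.02. In experiment 2, 11 of 17 were higher, with a median of 0.15. In experiment 3, 16 of 17 were higher, 11 of them by more than 1, with a median of 1.24 and a highest value of 2.64. All genes had medians of 0, -0.02 and 0.01 in the same 3 experiments. Of all 12393 genes, 6100, 5464 and 6403 were higher in experiments 1, 2 and 3, and 246 were higher by more than 1 in experiment 3. With 1 array per condition in each experiment, the difference of the enzymes between experiments has no test. The mean change of 11 of the 17 changed sign when 1 array or experiment was left out. Without experiment 1, in which all 17 were lower, the enzymes Pmvk, Lss, Hsd17b7 and Sc5d passed as higher after the antibody. These are 4 of the 17, where 6.98% of all genes were higher. Without experiment 2 none of the enzymes passed, and without experiment 3 Ebp alone did, as lower. The calls thus depended on the experiment left out. The spread of the 3 arrays of a condition was also uneven: the median SD over the 17 enzymes was 0.99 in untreated cells, 1.04 after HGF/SF1 and 0.23 after the antibody, where the median SD over all genes was 0.16, 0.17 and 0.18. After the antibody 7 of the 17 enzymes fell in the order of experiments 1, 2 and 3, against 16 in each of the other conditions. Of all 12393 genes, 2655 had this order after the antibody, 2620 in untreated cells and 2486 after HGF/SF1.

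**Figure D4:**
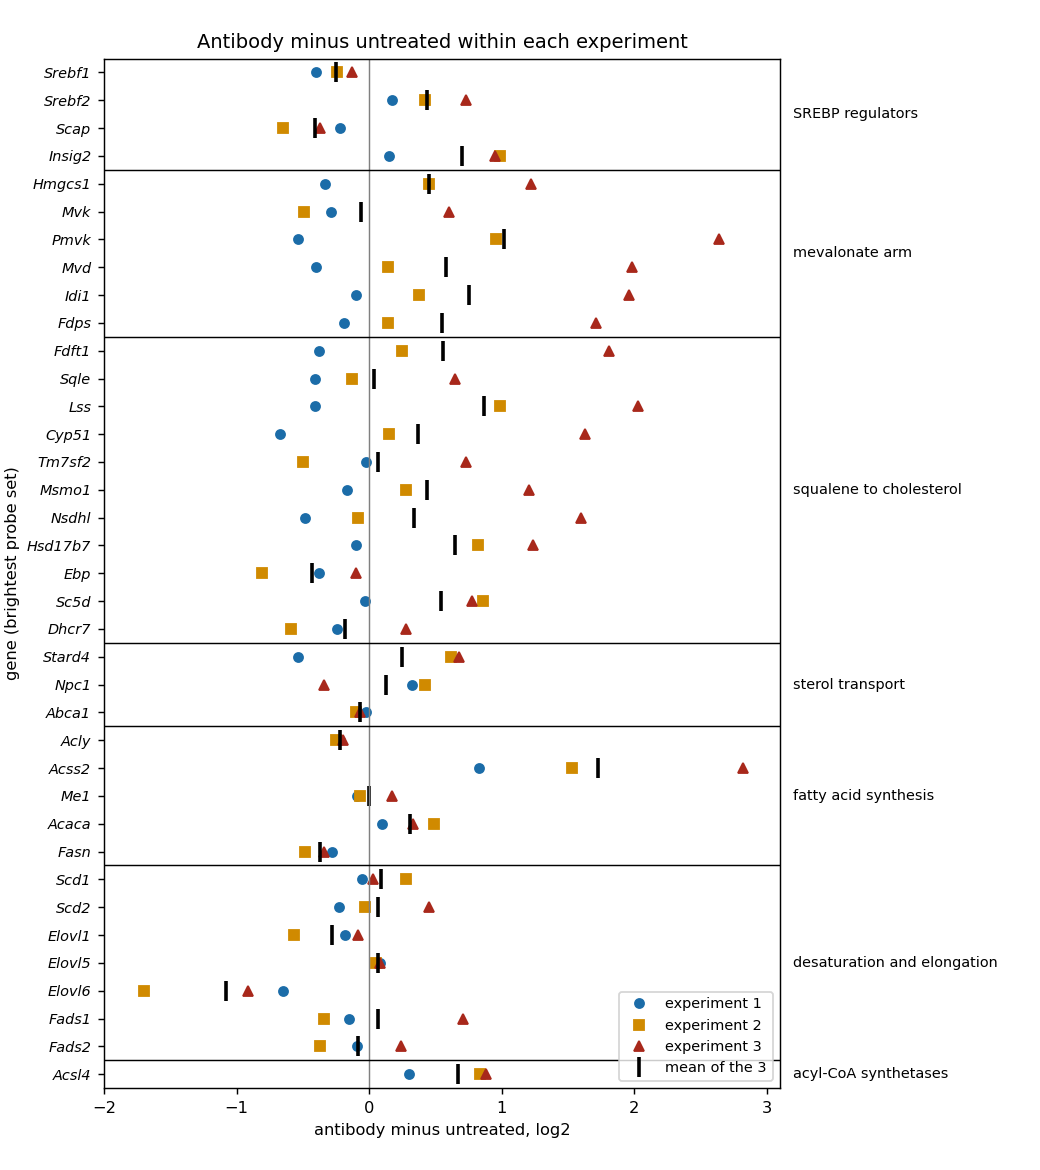
Antibody minus untreated log2 value within each experiment for the 37 measured members, with the mean of the 3 experiments as a black bar. For most sterol enzymes experiment 1 lies at or below 0 and experiment 3 far above it, while for some members all 3 experiments lie on 1 side of 0, among them Acss2, Acsl4 and Insig2 above it and Scap, Fasn, Elovl6 and Ebp below it.

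Hmgcs1 and Idi1 fell together in experiment 3, and Acss2 and Fasn moved apart after the antibody. The fall of Fasn missed the threshold without the block. These pairs are not separate classes, as Acss2 and Fasn also passed as lower in experiment 3 than in experiment 1. The start regions of these 4 members are printed to show the letters known from sterol-regulated promoters. Each runs from 250 bases before to 50 bases after the RefSeq start in GRCm38.p6, and capitals mark the sterol regulatory element TCACNCCAC, the CCAAT box and the GC box GGGCGG on either strand.
Hmgcs1 (chr13:119690101-119690400, plus strand): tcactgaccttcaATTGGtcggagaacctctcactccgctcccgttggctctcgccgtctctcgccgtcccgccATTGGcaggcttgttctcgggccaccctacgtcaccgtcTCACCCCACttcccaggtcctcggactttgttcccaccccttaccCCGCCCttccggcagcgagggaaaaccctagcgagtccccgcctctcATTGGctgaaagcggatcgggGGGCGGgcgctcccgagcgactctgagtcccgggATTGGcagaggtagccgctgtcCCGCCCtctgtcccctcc
Idi1 (chr13:8885356-8885655, plus strand): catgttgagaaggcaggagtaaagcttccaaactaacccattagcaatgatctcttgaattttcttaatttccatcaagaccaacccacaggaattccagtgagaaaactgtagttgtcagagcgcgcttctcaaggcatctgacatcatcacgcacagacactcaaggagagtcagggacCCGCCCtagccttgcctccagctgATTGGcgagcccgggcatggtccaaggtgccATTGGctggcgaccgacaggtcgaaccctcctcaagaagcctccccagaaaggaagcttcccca
Acss2 (chr2:155517793-155518092, plus strand): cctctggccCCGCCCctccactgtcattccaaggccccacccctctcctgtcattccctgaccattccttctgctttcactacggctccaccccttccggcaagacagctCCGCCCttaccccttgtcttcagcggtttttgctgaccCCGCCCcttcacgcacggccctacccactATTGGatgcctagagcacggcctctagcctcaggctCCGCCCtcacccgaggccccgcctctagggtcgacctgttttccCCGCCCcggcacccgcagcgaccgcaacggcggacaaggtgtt
Fasn (chr11:120824498-120824797, minus strand): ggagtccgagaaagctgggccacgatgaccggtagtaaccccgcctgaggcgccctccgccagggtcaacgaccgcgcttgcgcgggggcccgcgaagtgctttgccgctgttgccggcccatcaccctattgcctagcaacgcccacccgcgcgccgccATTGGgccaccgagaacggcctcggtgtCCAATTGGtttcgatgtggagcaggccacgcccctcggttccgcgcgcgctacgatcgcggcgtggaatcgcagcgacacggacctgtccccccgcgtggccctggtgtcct
Such windows were read for 33 of the 41 members. The sterol regulatory element letters were found in 1.24% of 32851 such windows and 1.44% of the gene symbols. Among the measured members they were in Hmgcs1 alone, where the match TCACCCCAC begins at position -137 from the start. The CCAAT letters were in 37.4% of the windows and 41.1% of the 27025 gene symbols. All 14 sterol enzymes with a window had them, with 4 matches in Hmgcs1, 2 in Idi1, 3 in Fasn and 1 in Acss2; the 2 matches of Fasn at positions -62 and -59 share bases. The GC box was in 35.7% of the windows and 38.2% of the gene symbols, in 13 of the 14 sterol enzymes and 5 times in Acss2. The E box letters CANNTG, not in capitals here, were in 72.3% of the windows and in 11 of the 14. Scap and Acsl4 had GC and E box letters in their windows and no CCAAT letters. A match of letters is a description of the window only, and binding was not measured.

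Among the carriers of sterols, 0 of 3 members passed after the antibody. Stard4, which moves cholesterol through the cytosol, was at 9.33, 8.12 and 7.02 in untreated cells, 9.43, 8.10 and 6.82 after HGF/SF1 and 8.79, 8.74 and 7.69 after the antibody. This probe set followed the sterol enzymes across experiments, with a difference of -2.01 (SE 0.29; adjusted p = 0.0209 by limma) between experiments 3 and 1. Its antibody arrays fell within the range of the untreated ones. A dimmer probe set of Stard4 differed by -1.82 (SE 0.42) but was lowest in experiment 2, at 9.08, 6.56 and 7.25 in untreated cells and 9.20, 6.24 and 6.39 after HGF/SF1. Npc1, which exports cholesterol from lysosomes, was the 1 member that passed as higher in experiment 3 than in experiment 1, by 1.12 (SE 0.34; adjusted p = 0.118 by limma). It was at 5.19, 6.01 and 7.19 in untreated cells, 6.46, 6.20 and 6.46 after HGF/SF1 and 5.51, 6.43 and 6.86 after the antibody, so the HGF/SF1 arrays did not share the rise. Abca1, the cholesterol exporter, was at 3.54, 3.61 and 3.41 in untreated cells, 3.56, 3.52 and 3.57 after HGF/SF1 and 3.52, 3.50 and 3.34 after the antibody. These values lie at the low end of the table, where a change is hard to see.

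In fatty acid synthesis, Acss2 gave the largest change of any member after the antibody. Acss2 makes acetyl-CoA from acetate and is a known SREBP target. It was at 7.48, 7.75 and 5.54 in untreated cells, 6.86, 7.10 and 5.62 after HGF/SF1 and 8.31, 9.29 and 8.36 after the antibody. The 3 antibody arrays were the highest of the 9, with no overlap. The change was 1.73 (SE 0.62, 95% interval 0.31 to 3.15; adjusted p = 0.328 by limma), made of 0.83, 1.53 and 2.82 in the 3 experiments. A second, dimmer probe set rose by 1.97 (SE 0.67). Without the untreated array of experiment 3 the change was 1.04, and it then missed the threshold, as it did at 1.41 without the antibody array of experiment 2 and without experiment 1 (2.18) or experiment 2 (1.83).

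Fasn, the fatty acid synthase, went the other way. It was at 9.96, 9.50 and 9.25 in untreated cells, 9.96, 9.30 and 9.35 after HGF/SF1 and 9.68, 9.02 and 8.91 after the antibody. The levels overlapped between conditions, yet the antibody array was the lowest within each experiment, with differences of -0.28, -0.48 and -0.34 from untreated. The mean of -0.37 passed the unadjusted threshold with experiment as a block (adjusted p = 0.119 by limma) and not without it (adjusted p = 0.695). Fasn was lower in experiment 3 than in experiment 1 (-0.70, SE 0.10; adjusted p = 0.0196 by limma). Acly, which makes acetyl-CoA from citrate, changed by -0.22 (SE 0.33) after the antibody, and the malic enzyme Me1 by 0.00 (SE 0.12). The acetyl-CoA carboxylase Acaca, whose probe set read only 3.90 to 5.23, was higher in each experiment by 0.10 to 0.49 and passed with the block alone (adjusted p = 0.228 by limma). Across experiments 3 and 1, 4 of these 5 genes passed and were lower, all but Me1, where 11.9% of all genes did.

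Among the 7 desaturases and elongases 0 passed after the antibody, and Elovl6 passed with experiment as a block. Elovl6 extends palmitate to stearate. It was at 9.22, 8.07 and 6.80 in untreated cells, 9.09, 7.54 and 6.96 after HGF/SF1 and 8.57, 6.37 and 5.89 after the antibody. As with Fasn, the conditions overlapped and the antibody array was the lowest in each experiment, with differences of -0.65, -1.70 and -0.91 from untreated. The mean change was -1.08 (SE 0.87 and adjusted p = 0.72 without the block; SE 0.20 and adjusted p = 0.0766 with it, by limma), and a second probe set changed by -0.83. Elovl6 had the lowest p of all members between experiments 3 and 1 (-2.41, SE 0.20; adjusted p = 0.00933 by limma). Its lowest value of the 9 was on the antibody array of experiment 3.

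Elovl1, which elongates very long chains, was at 10.22, 10.13 and 9.78 in untreated cells, 10.75, 9.97 and 9.97 after HGF/SF1 and 10.04, 9.55 and 9.71 after the antibody. Its 3 probe sets changed by -0.28 to -0.34 after the antibody, and 0 of 3 passed by limma without the block. The desaturases Scd2 and Fads1 changed by 0.07 each and the elongase Elovl5 by 0.07. Scd1 and Fads2 lay between 3.15 and 4.84 on all arrays, at the low end of the table. In experiment 3, 6 of the 7 were lower than in experiment 1 and passed, all but Fads2, where 11.9% of all genes did. Scd2 differed by -0.92 (SE 0.16, adjusted p = 0.0326 by limma).

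Acsl4, which joins arachidonate and similar fatty acids to CoA, rose after the antibody. It was at 9.02, 9.37 and 9.02 in untreated cells, 9.31, 9.34 and 8.76 after HGF/SF1 and 9.31, 10.21 and 9.89 after the antibody. The antibody arrays of experiments 2 and 3 lay above all others, and that of experiment 1 lay within the range of the untreated and HGF/SF1 arrays. The change was 0.67 (SE 0.25; adjusted p = 0.344 by limma), and the 2 dimmer probe sets changed by 0.57 and 1.10. It missed the threshold without the antibody array of experiment 2 (0.47) or 3 (0.63), without the untreated array of experiment 1 (0.61) or 3 (0.61), and without experiment 2 (0.59) or 3 (0.57). Between experiments 3 and 1 the brightest probe set differed by 0.01 (SE 0.20), while the dimmer ones read higher in experiment 3, by 1.27 (SE 0.28) and 0.42 (SE 0.44).

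**Figure D5:**
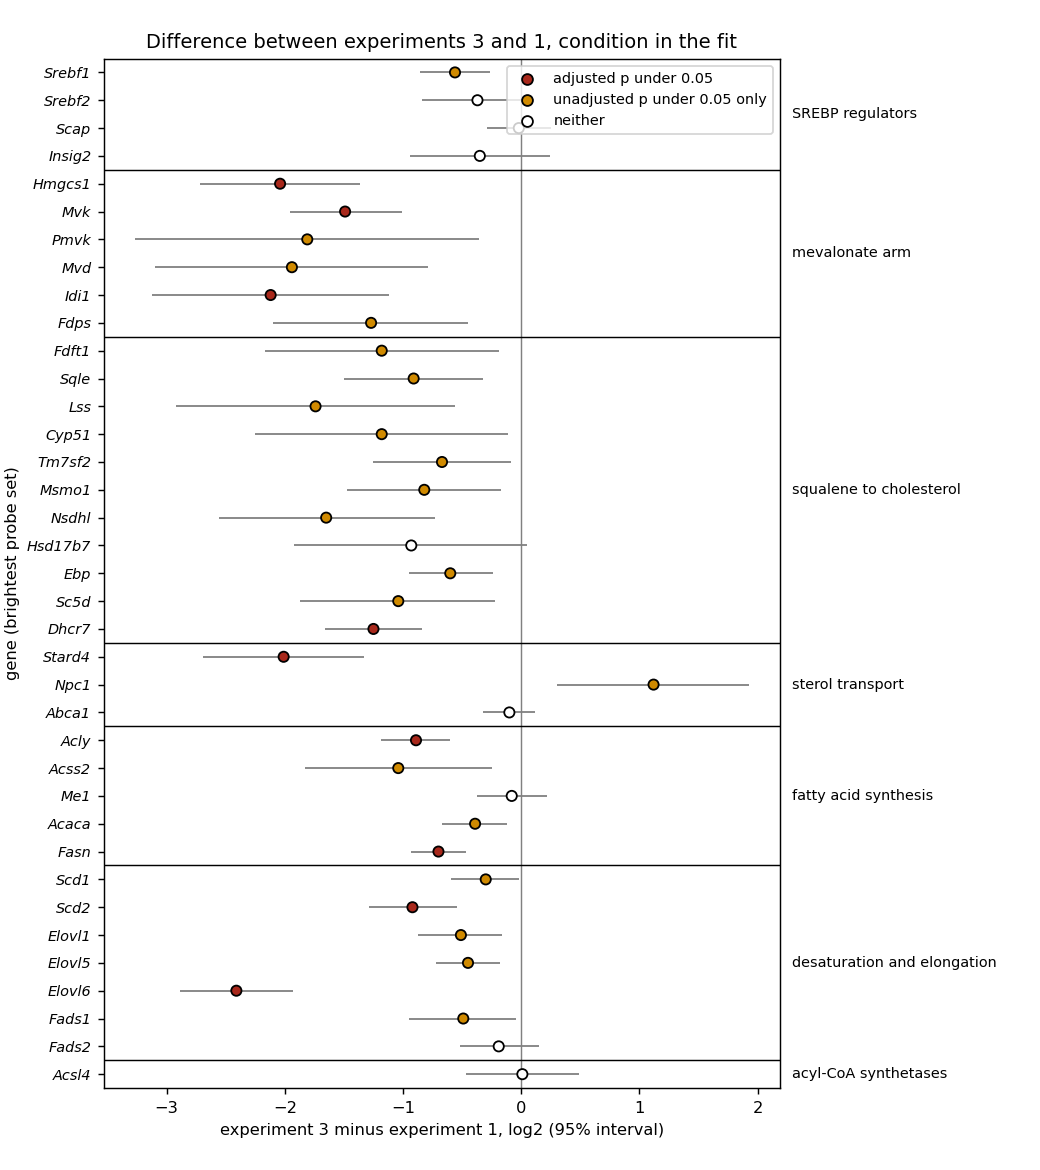
Log2 difference between experiments 3 and 1 for the 37 measured members, from the fit with condition and experiment as terms; bars are 95% intervals. Of the members 28 lie below 0 and 1 (Npc1) above it with an unadjusted p under 0.05, and 9 pass after adjustment, with Elovl6 the lowest at -2.41.

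HGF/SF1, the growth factor of the scattering response, was compared with untreated cells in the same way. Of the 37 members 0 passed by limma at an unadjusted p under 0.05, where 0.839% of all genes did, and 0 passed after adjustment (0% of all genes). The median change of the members was -0.04. With experiment as a block 1 of 37 passed, where 1.66% of all genes did: Dhcr7, which fell by 0.53 on the log2 scale (adjusted p = 1 by limma). The intervals were wide, as for Idi1 (-0.25, 95% interval -2.14 to 1.64) and Hmgcs1 (-0.44, 95% interval -2.17 to 1.30), and they include 2-fold changes in either direction for both enzymes. Within experiments the 17 enzymes had median changes of 0.18, -0.52 and 0.12. In experiment 2, 16 of 17 were lower after HGF/SF1 and 1 was higher, where 5027 of all 12393 genes were higher.

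Antibody and HGF/SF1 were also compared directly, and this comparison shares its antibody arrays with the one against untreated cells. Acss2 was higher after the antibody by 2.13 (adjusted p = 0.218), Acsl4 by 0.67 (adjusted p = 0.304) and Srebf2 by 0.56 (adjusted p = 0.359), and Scap was lower (-0.53, adjusted p = 0.139), all by limma. These are 4 of 37 members, where 14.1% of all genes passed, and 0 of the 37 passed after adjustment, whereas 0.0242% of all genes did. With the block 10 of 37 passed, where 20.3% of all genes did. Those were Acss2, Acsl4, Srebf2, Insig2 and Hmgcs1 as higher and Scap, Elovl6, Fasn, Elovl1 and Ebp as lower, and Acss2 alone passed after adjustment (adjusted p = 0.0488 by limma), where 1.13% of all genes did with the block. The call of Srebf2 was lost with the mean of all its probe sets (0.28) and, among others, without the HGF/SF1 array of experiment 3 (0.37) or without experiment 3 (0.30).

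Beyond the members, 54 further genes of lipid metabolism were measured, and after the antibody 1 was higher and 9 were lower (unadjusted p under 0.05; 12.6% of all genes in either direction). Of 6 genes of SREBP processing, Sec24d, a coat protein of the vesicles that leave the endoplasmic reticulum, was lower (-1.04; adjusted p = 0.122 by limma). It was at 8.62, 8.62 and 8.97 in untreated cells and at 7.92, 7.78 and 7.40 after the antibody, with no overlap. Of 6 other genes of the sterol route, the scaffold Erg28 was lower (-1.26) and the farnesyltransferase subunit Fntb higher (0.26). Of 13 genes of sterol uptake, storage and efflux, 4 were lower, namely Nr1h3, which encodes the oxysterol receptor LXRα (-0.67), and the sterol carriers Osbp (-0.40), Stard3 (-0.64) and Osbpl2 (-0.47). Of 21 genes of fatty acid synthesis, elongation and NADPH supply, Hacd3 (-0.70) and Fads3 (-0.41) were lower. Of 8 regulators of lipid synthesis, Mlx, the partner of ChREBP, was lower (-0.42). By limma 0 of the 54 passed after adjustment, and the block raised the unadjusted counts to 2 higher and 14 lower, where 18.5% of all genes passed in either direction.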

How the data were processed

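RNA of 9 MLP29 samples was measured on Mouse430A_2 arrays. Values were deposited on the log2 scale, 1 per probe set, after the authors had run rma background correction on all arrays in affylmGUI; the other steps were not given in the sources used here. Array medians ran from 5.91 to 6.08, and the log2 difference between 3' and 5' control probe sets from -0.32 to -0.06 (Gapdh) and from 0.20 to 0.87 (β-actin). Of 22690 probe sets, 64 controls were left out. A gene is the brightest probe set, by its mean over all arrays, that names that gene alone.

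Conditions and experiments were read from the sample titles, in which each of 3 codes holds each condition once. The experiment numbers pair the arrays: with condition means subtracted, r was 0.0958 to 0.591 within experiments and -0.484 to 0.0308 across them. A mean per condition was fitted to all 9 arrays with limma 3.58.1 (R 4.3.3, eBayes, two-sided), with Benjamini-Hochberg adjustment over 22626 probe sets and with experiment as a block as an alternative. The comparison of experiments was added after the values were seen. The script was tested on simulated data. Alternatives were array centring, quantile normalization, a brightness filter, a trend, the mean of all probe sets, and leaving out each array or experiment. Full array values were given for members past the unadjusted threshold, the SREBP regulators and the 2 members of each role with the smallest p after the antibody; Hmgcs1, Idi1, Lss and Npc1 were added after their values were seen. Members and lists were chosen with earlier results of these data known. Array number limits the precision, and levels of different probe sets were not compared.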

Additional observations from a re-analysis of the deposited data

How the results depend on the processing

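With experiment as a replicate block, 4 members were higher and 4 lower after the antibody, 1 was lower after HGF/SF1, and 5 were higher and 5 lower with the antibody against HGF/SF1, 1 of them past the adjusted threshold; the block changed no other call of a member. Fitting the 2 compared conditions alone gave 4 higher after the antibody, and experiment as a random replicate block gave 2 lower against HGF/SF1. Leaving out 1 array or experiment, the members higher after the antibody ranged from 0 (without experiment 2, the antibody array of experiment 2 or the untreated array of experiment 3) to 7 (without experiment 1), those lower from 0 to 3, those lower after HGF/SF1 from 0 to 2 with a median of all members from -0.40 (without the HGF/SF1 array of experiment 1) to 0.19, and against HGF/SF1 those higher from 1 to 9, lower from 1 to 2 and past the adjusted threshold from 0 to 2.

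The settings for the comparison of experiments were chosen after seeing the data. Between experiments 3 and 1, 0 members were higher without the antibody or the untreated arrays, 14 were lower without the HGF/SF1 or the untreated arrays, the adjusted count was 17 without the antibody arrays (2.61% of all genes), 5 with the mean of probe sets and 0 without the HGF/SF1 or the untreated arrays, and the median was -1.12 without the antibody and -0.68 without the HGF/SF1 arrays. Between experiments 3 and 2, without the antibody arrays 22 were lower (7.28% of all genes) and 4 adjusted (0.896%), with a median of -0.71; without the HGF/SF1 arrays 2 were higher (4.24%), 8 lower (4.94%) and 0 adjusted; without the untreated arrays 5 were lower (3.76%) and 0 adjusted. There, 0 were higher above the median brightness, and the adjusted count was 2 with a trend and 0 with centred arrays or the mean of probe sets. Between experiments 2 and 1, 23 were lower (6.5% of all genes) and 0 adjusted without the antibody arrays, 2 higher (4.99%), 5 lower (3.74%) and 0 adjusted without the HGF/SF1 arrays, 0 adjusted without the untreated arrays, and 1 adjusted above the median brightness; Scd2 turned to 0.12 without the HGF/SF1 arrays. Between experiments 3 and 1, Scap turned to 0.05 without the HGF/SF1 arrays and Acsl4 to -0.03 with centred arrays, -0.04 with quantile normalization and -0.28 without the antibody arrays. These fits have fewer arrays, and the cause was not tested otherwise.

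When 1 array or experiment was left out, 21 of the 37 members changed sign after the antibody (11 of the 17 sterol enzymes), 34 after HGF/SF1 (16 of 17) and 15 against HGF/SF1 (6 of 17). Of the members described above, after the antibody these were Hmgcs1 (-0.29 to 1.05), Mvk (-0.59 to 0.39), Mvd (-0.23 to 1.14), Idi1 (-0.04 to 1.34), Fdps (-0.02 to 0.99), Dhcr7 (-0.64 to 0.14), Stard4 (-0.32 to 0.84), Npc1 (-0.34 to 0.66), Acly (-0.46 to 0.01), Me1 (-0.08 to 0.05), Acaca (-0.01 to 0.60), Scd2 (-0.34 to 0.27), Elovl5 (-0.02 to 0.16) and Fads1 (-0.27 to 0.30). After HGF/SF1 they were Srebf2 (-0.40 to 0.07), Insig2 (-0.30 to 0.34), Hmgcs1 (-1.18 to 0.16), Mvk (-0.73 to 0.25), Pmvk (-0.73 to 0.75), Mvd (-0.81 to 0.60), Idi1 (-1.04 to 0.44), Fdps (-0.74 to 0.26), Lss (-0.80 to 0.53), Hsd17b7 (-0.52 to 0.46), Ebp (-0.29 to 0.12), Stard4 (-0.69 to 0.61), Npc1 (-0.27 to 0.78), Abca1 (-0.04 to 0.09), Acly (-0.34 to 0.16), Acss2 (-1.09 to 0.05), Me1 (-0.16 to 0.05), Acaca (-0.27 to 0.34), Fasn (-0.25 to 0.16), Scd2 (-0.46 to 0.23), Elovl1 (-0.07 to 0.36), Elovl5 (-0.29 to 0.07), Elovl6 (-0.78 to 0.43), Fads1 (-0.35 to 0.21) and Acsl4 (-0.14 to 0.19). Against HGF/SF1 they were Srebf1 (-0.06 to 0.23), Mvk (-0.21 to 0.52), Mvd (-0.02 to 1.34), Stard4 (-0.36 to 0.95), Npc1 (-0.41 to 0.31), Acly (-0.38 to 0.12), Me1 (-0.05 to 0.20), Scd2 (-0.17 to 0.35), Elovl5 (0.00 to 0.37) and Fads1 (-0.10 to 0.19). With quantile normalization Mvk (0.00) and Me1 (-0.02) turned after the antibody and Mvd (0.02) and Fads1 (0.01) after HGF/SF1. With centred arrays Mvd (0.03), Ebp (0.00) and Fads1 (0.02) turned after HGF/SF1. With the mean of probe sets Mvd (0.01), Abca1 (-0.05), Me1 (0.01) and Acsl4 (-0.03) turned after HGF/SF1 and Abca1 (0.00) against HGF/SF1. Array number and, for Scd1, Abca1, Fads2 and Acaca, signal near the low end of the table limit what can be seen.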

Other observations

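Among the 54 further genes of lipid metabolism, 14 were lower and 3 higher in experiment 3 than in experiment 1 at an unadjusted p under 0.05. These are 31.5% of the list, where 22.4% of all genes passed in either direction and 11.9% were lower. Idh1, which supplies NADPH in the cytosol, was at 11.04, 10.63 and 9.12 in untreated cells, 11.75, 10.27 and 9.36 after HGF/SF1 and 10.50, 10.25 and 9.46 after the antibody. Its level thus fell over the 3 experiments in every condition, the antibody included, with a difference of -1.78 between experiments 3 and 1 (adjusted p = 0.025 by limma). The acyl-CoA synthetase Acsl5 (-0.72), the pentose phosphate enzyme Pgd (-0.57) and the phospholipid acyltransferase Lpcat3 (-0.68) were lower too after adjustment, and the chaperone Hsp90b1 was higher (0.77), where 3.86% of all genes passed after adjustment.

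Lpin1, a phosphatidate phosphatase and regulator of lipid genes, was at 7.72, 6.36 and 5.91 in untreated cells, 7.98, 6.17 and 5.67 after HGF/SF1 and 7.01, 7.81 and 7.15 after the antibody. The antibody array lay below the untreated one in experiment 1 and above it in experiments 2 and 3. Lpin1 was named after its values were seen.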
